A study of Mus musculus with 10 samples.

Results

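A set of 10 genes that mark stem cells of the mouse hair follicle were followed through skin of 2 age groups. The 10 genes were listed by name, with earlier results of these data known, so their counts beside all genes only describe them. Of the bulge they were Cd34, Lhx2, Sox9, Nfatc1, Foxc1, Tbx1 and Krt15. The others were Lgr5 of the hair germ and lower bulge, Lgr6 of the isthmus, and Gli1 of the germ and the isthmus. Each of the 10 was found under 1 Ensembl identifier among the 47729 genes of the count table. All 10 passed the filter on low counts that left 17668 genes for testing. Messenger RNA was sequenced from whole skin of male C57BL/6 mice; 5 libraries carry the age label 24 months and 5 the label 9 months. The younger age reads 2 months, not 9, in the design text of the series, and this doubt attaches to each comparison. Strain, sex and tissue were the same in both groups, and no treatment or transgene is named. The titles carry a separate number for each library, but the labels do not say in words that each came from its own animal, so the p-values measure the spread between these libraries.

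The bulge is the lowest permanent part of the follicle, below the sebaceous gland, and holds slowly dividing stem cells. The hair germ lies directly beneath it and divides first when a resting follicle starts to grow. The isthmus lies above it. Growth is set off by Wnt, R-spondin and hedgehog signals and held back by bone morphogenetic proteins. In whole skin, a lower level can come from fewer cells of a type or from less RNA in each cell, and these cannot be told apart. Several of the genes are also active outside the follicle, for example Cd34 in fibroblasts, mast cells and vessel walls.

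Total counts ranged from 31.6 to 40.8 M in the 24 months libraries and from 29.3 to 56.0 M in the 9 months libraries, where M is mega. Markers of skin were present in every library: the 6 genes of the basal epithelium averaged 8.71 to 9.48 at 24 months and 8.89 to 9.39 at 9 months on the log2(scaled CPM + 0.5) scale. Scaled CPM is the count per mega counts after trimmed mean scaling. The keratin gene Krt73 of the inner root sheath, a layer made only while a hair grows, reached 354 and 984 CPM before scaling in 9 months replicates 4 and 5, while each of the 8 other libraries had 0.809 to 10.6 CPM. Fold changes of each of the 10 genes, the list medians and the order of levels are therefore also given without those 2 libraries, of which replicate 5 was also the deepest. Profile distances were computed over all 10 libraries only. A second departure lay in the older group. There Col1a1, the main collagen chain gene of fibroblasts, was at 114 and 111 scaled CPM in 24 months replicates 1 and 2, at 974 to 1348 in 24 months replicates 3 to 5, and at 2107 to 3216 in the 9 months libraries.

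Of the 10 stem cell genes, 9 had a lower fitted level at 24 months and 1, Nfatc1, a higher one. The median log2 fold change, 24 months over 9 months, was -0.71 over the 10 genes, beside -0.01 over all genes tested, of which 51.6% were negative. None passed the threshold: in the quasi-likelihood test of edgeR, adjusted by Benjamini-Hochberg over 17668 genes, 0 of the 10 had an adjusted p under 0.05, where 0% of all genes were called higher and 0% lower. At an unadjusted p under 0.05, Lhx2, Sox9, Tbx1, Lgr5 and Gli1 were lower, against a background of 6.45% of all genes. Nfatc1 was higher, against 6.62%. In 0 of the 10 genes did the age groups separate without overlap, as 1.23% of all genes did on the lower side and 1.66% on the higher side. DESeq2 also called 0 of the 10, where it called 2.17% higher and 2.42% lower of the 19973 genes that it gave an adjusted p. At an unadjusted p under 0.05 it had 6 of the 10 lower and 1 higher. The shares were 5.18% lower and 4.98% higher over the 31170 genes that it gave a p-value, a wider set than in edgeR. In limma-voom 0 were called, with 2 lower at an unadjusted p, against 4.78% of all genes, and 1 higher, against 6.05%. With 1 library left out in edgeR, the number lower at an unadjusted p was between 2 and 6. It was 2 without 24 months replicate 1 or 3 (5.44% and 5.54% of all genes lower) and 2 without 9 months replicate 4 or 5 (5.16% and 5.5%). It was 3 without 24 months replicate 4 or 5 (5.85% and 5.71% of all genes), 4 without 24 months replicate 2 (5.29%), 5 without 9 months replicate 1 (8.05%) and 6 without 9 months replicate 2 or 3 (7.01% and 7.14%).

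Without 9 months replicates 4 and 5, the median log2 fold change of the 10 genes was -0.34, beside 0.01 over all 18036 genes then tested. Again 9 of the 10 were negative, where 48.6% of all genes were. At an unadjusted p under 0.05, 0 of the 10 genes differed in the edgeR test, where 4.65% of all genes were higher and 4.14% lower. After adjustment 0 were called, where 0% of all genes were called higher and 0.00554% lower. The groups overlapped for each of the 10, while 3.61% of all genes were separated on the higher side and 2.41% on the lower side. Leaving out 24 months replicates 1 and 2 instead also gave 0 of the 10 at an unadjusted p under 0.05 in edgeR, lower or higher. In that fit 656 of 18102 genes were lower and 898 higher, and the median log2 fold change of the 10 was -0.64.

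**Figure D1:**
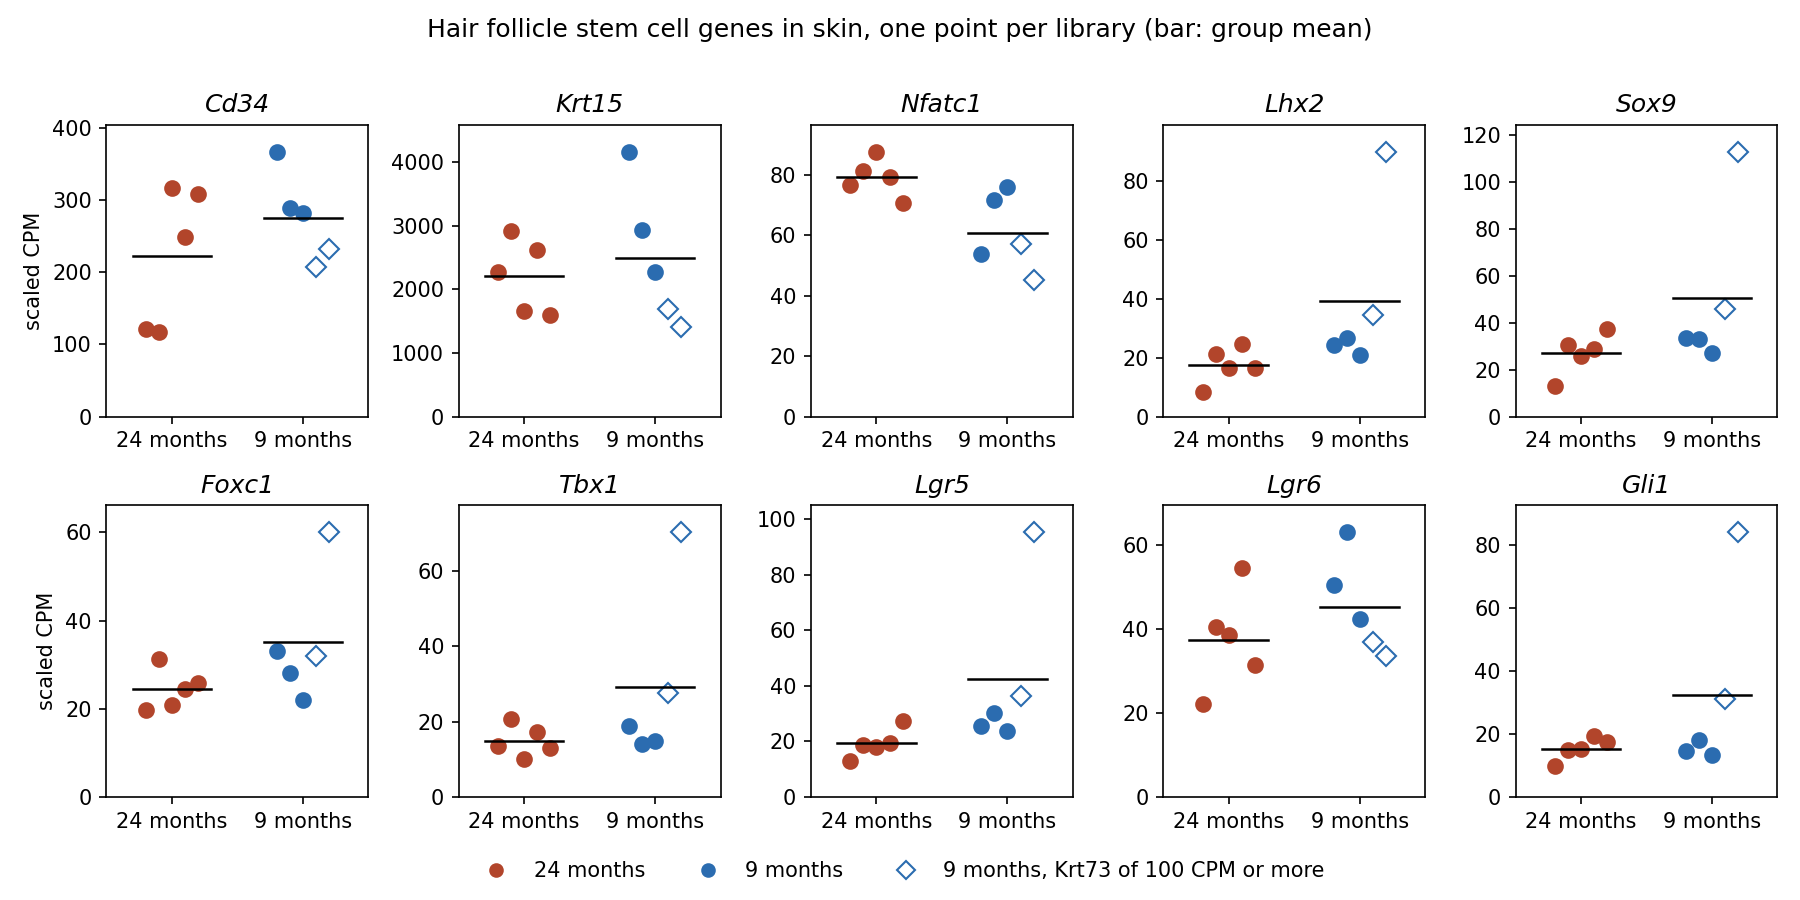
Scaled CPM of the 10 genes (vertical axes, linear, from 0) in each library, with 24 months left of 9 months; horizontal bars are group means of 5, and open diamonds are the 9 months libraries with Krt73 of 100 CPM or more. Lhx2, Sox9, Foxc1, Tbx1, Lgr5 and Gli1 have their highest library in 9 months replicate 5, whereas Krt15 and Nfatc1 have their lowest there.

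Among the bulge genes, Cd34 encodes a sialomucin of the cell surface by which mouse bulge cells are sorted (ENSMUSG00000016494, GRCm38 chromosome 1, 194938819 to 194961279, plus strand). Its level was 121, 117, 316, 248 and 308 scaled CPM in 24 months replicates 1 to 5, and 367, 289, 282, 206 and 232 scaled CPM in 9 months replicates 1 to 5. The older group split into 2 low libraries and 3 that lay within the younger range, and the younger libraries with high Krt73 were the lowest of their group. Means were 222 ± 97.5 scaled CPM at 24 months and 275 ± 61.8 at 9 months (SD, n = 5 each), with a log2 fold change of -0.31 ± 0.30 (SE; edgeR adjusted p = 0.719). Without 9 months replicates 4 and 5 it was -0.50 ± 0.34, and without 24 months replicates 1 and 2 it was 0.08 ± 0.21. Those 2 older libraries were also the lowest in fibroblast genes, whose 6 members summed to 1619 and 1094 scaled CPM there, to 3962 to 5906 in the other 24 months libraries and to 6172 to 9092 at 9 months. Genes of blood endothelium, another cell type that makes Cd34, summed to 532 and 490 scaled CPM in those 2 libraries. Their sums were 322 to 510 in the other 24 months libraries and 336 to 585 at 9 months. The part of either cell type in the Cd34 values was not tested. The exons of Cd34 also overlap Gm16897 on the opposite strand, which was at 1.38 to 3.03 scaled CPM at 24 months and 1.97 to 2.59 at 9 months.

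Krt15, a type I keratin of bulge cells and of part of the basal layer (ENSMUSG00000054146, chromosome 11, 100131758 to 100135928, minus strand), was by far the most abundant of the 10 and took 0.145% to 0.39% of all counts of a library. It stood at 2278, 2923, 1658, 2622 and 1604 scaled CPM in 24 months replicates 1 to 5, and at 4169, 2938, 2275, 1698 and 1417 scaled CPM in 9 months replicates 1 to 5. The highest and the lowest library were both young, and the older libraries lay between them. The log2 fold change was -0.17 ± 0.31 (SE; edgeR adjusted p = 0.869). It was -0.50 ± 0.29 without 9 months replicates 4 and 5, and 0.09 ± 0.28 without 9 months replicate 1 alone.

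Nfatc1, a calcineurin-dependent transcription factor that keeps bulge cells from dividing (ENSMUSG00000033016, chromosome 18, 80606205 to 80713071, minus strand), was the one gene with a higher level at 24 months. Its values were 76.6, 81.5, 87.8, 79.2 and 70.9 scaled CPM in 24 months replicates 1 to 5, and 53.8, 71.9, 76.0, 57.2 and 45.3 scaled CPM in 9 months replicates 1 to 5. Of the older libraries 4 lay above every young one, 3 young libraries lay below every older one, and the younger range met the older range only through 9 months replicates 2 and 3. Means were 79.2 ± 6.21 scaled CPM at 24 months and 60.8 ± 12.8 at 9 months (SD, n = 5 each), with a log2 fold change of 0.38 ± 0.15 (SE; edgeR adjusted p = 0.291). The SD was 7.84% of the mean at 24 months, the smallest of the 10 genes in that group. Without 9 months replicates 4 and 5 the log2 fold change was 0.24 ± 0.15. It was positive under all 17 alternatives computed, between 0.24 and 0.47. Nfatc1 is also active in lymphatic endothelium, whose 4 marker genes averaged 2.30 to 3.75 at 24 months and 2.84 to 3.37 at 9 months on the log2(scaled CPM + 0.5) scale. Its part in the Nfatc1 values was not tested.

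Lhx2 encodes a LIM homeobox transcription factor that maintains bulge cells (ENSMUSG00000000247, chromosome 2, 38339281 to 38369733, plus strand). It stood at 8.28, 21.2, 16.4, 24.8 and 16.6 scaled CPM in 24 months replicates 1 to 5, and at 24.4, 26.7, 21.0, 34.5 and 90.1 scaled CPM in 9 months replicates 1 to 5. The ranges met between 21.0 and 24.8 scaled CPM, and 9 months replicate 5 stood far above the rest. Its log2 fold change of -1.17 ± 0.41 (SE; edgeR adjusted p = 0.247) was the most negative of the 10. It was -0.47 ± 0.29 without 9 months replicates 4 and 5. Without 9 months replicate 5 alone it was -0.61.

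Sox9 encodes a transcription factor needed to set aside the follicle stem cells (ENSMUSG00000000567, chromosome 11, 112782224 to 112787760, plus strand). It stood at 12.8, 30.6, 25.8, 28.7 and 37.2 scaled CPM in 24 months replicates 1 to 5, and at 33.7, 32.8, 27.2, 45.8 and 113 scaled CPM in 9 months replicates 1 to 5. The 3 younger libraries with little Krt73 lay inside the older range. The log2 fold change was -0.90 ± 0.40 with all libraries (SE; edgeR adjusted p = 0.358) and -0.21 ± 0.28 without 9 months replicates 4 and 5.

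Tbx1 encodes a T-box transcription factor linked to the renewal of the bulge pool (ENSMUSG00000009097, chromosome 16, 18580979 to 18590671, minus strand). It stood at 13.4, 20.7, 10.1, 17.2 and 13.0 scaled CPM in 24 months replicates 1 to 5, and at 18.9, 14.1, 14.9, 27.5 and 70.4 scaled CPM in 9 months replicates 1 to 5. Here too the 3 younger libraries with little Krt73 fell within the older range. The log2 fold change was -0.98 ± 0.42 (SE; edgeR adjusted p = 0.35) and -0.11 ± 0.24 without 9 months replicates 4 and 5.

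Foxc1, a forkhead factor that returns activated stem cells to rest (ENSMUSG00000050295, chromosome 13, 31806633 to 31812476, plus strand), had the narrowest span of the 6 genes that were highest in 9 months replicate 5. It stood at 19.7, 31.2, 20.8, 24.5 and 25.8 scaled CPM in 24 months replicates 1 to 5, and at 33.1, 28.2, 21.9, 31.9 and 60.1 scaled CPM in 9 months replicates 1 to 5. Unlike the other 5 of these genes, it was lower in 9 months replicate 4 than in 9 months replicate 1. The log2 fold change was -0.52 ± 0.25 (SE; edgeR adjusted p = 0.402) and -0.19 ± 0.20 without 9 months replicates 4 and 5.

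Promoter sequence was at hand in the RefSeq table for 5 of the 10 genes (build GRCm38.p6). The 250 bases before the start are printed, 5′ to 3′ on the strand of the gene, for 2 transcription factor genes, Lhx2 (chr2:38339031-38339280, plus strand) and Foxc1 (chr13:31806396-31806645, plus strand), and for 2 surface protein genes, Cd34 (chr1:194938571-194938820, plus strand) and Lgr6 (chr1:135105277-135105526, minus strand). Capitals mark matches, on either strand, to the TATA box TATAAA, the CCAAT box, the GC box GGGCGG, the TCF/LEF core CTTTGA or the GLI site GACCACCCA, none of which overlap one another here.
Lhx2: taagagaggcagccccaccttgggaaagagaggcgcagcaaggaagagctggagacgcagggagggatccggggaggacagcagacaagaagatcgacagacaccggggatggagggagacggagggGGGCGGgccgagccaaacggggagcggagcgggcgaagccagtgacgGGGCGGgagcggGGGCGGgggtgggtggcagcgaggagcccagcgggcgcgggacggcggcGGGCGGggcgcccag
Foxc1: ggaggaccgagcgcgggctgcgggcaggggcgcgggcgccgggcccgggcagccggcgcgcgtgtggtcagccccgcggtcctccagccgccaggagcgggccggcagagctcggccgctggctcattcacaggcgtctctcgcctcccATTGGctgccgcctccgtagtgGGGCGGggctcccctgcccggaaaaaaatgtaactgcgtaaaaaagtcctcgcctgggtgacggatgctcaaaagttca
Cd34: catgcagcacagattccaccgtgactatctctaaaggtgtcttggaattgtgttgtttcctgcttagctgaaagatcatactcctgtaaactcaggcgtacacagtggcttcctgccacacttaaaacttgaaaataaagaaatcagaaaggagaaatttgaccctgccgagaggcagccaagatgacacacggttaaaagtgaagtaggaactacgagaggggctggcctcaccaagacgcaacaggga
Lgr6: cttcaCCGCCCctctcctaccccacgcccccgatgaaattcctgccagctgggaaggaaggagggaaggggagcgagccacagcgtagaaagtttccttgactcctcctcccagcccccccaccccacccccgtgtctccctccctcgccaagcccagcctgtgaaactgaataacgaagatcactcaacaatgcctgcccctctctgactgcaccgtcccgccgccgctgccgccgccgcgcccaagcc
The stretch of Lhx2 held 4 GC boxes, that of Foxc1 held 1 GC box and 1 CCAAT box, that of Lgr6 held 1 GC box, and that of Cd34 held none of the 5 motifs. The stretch of Tbx1 held none either; it is not printed because the bases that follow it were not found in the GENCODE transcripts of the gene. Over all 32851 windows of this length, 32.7% held a GC box, 33.8% a CCAAT box, 12.4% a TATA box, 13.8% a TCF/LEF core and 0.225% a GLI site. The share of G and C was 72.8% for Lhx2, 70.8% for Foxc1, 46.4% for Cd34, 65.2% for Lgr6 and 54.4% for Tbx1, beside a median of 52.4% over all windows. These are matches of letters in a short window and not measured sites.

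Lgr5 and Lgr6 encode related receptors for R-spondins, secreted proteins that strengthen Wnt signalling. Lgr5 (ENSMUSG00000020140, chromosome 10, 115450311 to 115587780, minus strand) stood at 13.0, 18.7, 17.9, 19.4 and 27.4 scaled CPM in 24 months replicates 1 to 5, and at 25.4, 30.3, 23.8, 36.3 and 95.4 scaled CPM in 9 months replicates 1 to 5. Of the older libraries 4 lay below every young one, and only replicate 5 at 27.4 reached into the younger range. Means were 19.3 ± 5.20 scaled CPM at 24 months and 42.3 ± 30.1 at 9 months (SD, n = 5 each), a log2 fold change of -1.13 ± 0.37 (SE; edgeR adjusted p = 0.216). This was the smallest p of the 10 genes. Without 9 months replicates 4 and 5 the log2 fold change was -0.46 ± 0.22 (edgeR adjusted p = 0.579), and in DESeq2 with all libraries the adjusted p was 0.057.

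Lgr6 (ENSMUSG00000042793, chromosome 1, 134983301 to 135105276, minus strand) did not share that pattern. It stood at 22.3, 40.4, 38.5, 54.5 and 31.3 scaled CPM in 24 months replicates 1 to 5, and at 50.5, 63.2, 42.4, 36.9 and 33.6 scaled CPM in 9 months replicates 1 to 5. The 2 younger libraries with high Krt73 were the lowest of their group for Lgr6 and the highest for Lgr5. The log2 fold change of Lgr6 was -0.28 ± 0.24 (SE; edgeR adjusted p = 0.687) and -0.48 ± 0.26 without 9 months replicates 4 and 5. The ratio of Lgr5 to Lgr6 in scaled CPM, not corrected for length, was therefore 0.583, 0.463, 0.465, 0.356 and 0.876 in 24 months replicates 1 to 5, and 0.504, 0.479, 0.561, 0.985 and 2.84 in 9 months replicates 1 to 5. In the 8 libraries with little Krt73 the ratios of the age groups overlapped.

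Gli1, a transcription factor and a direct target of hedgehog signalling (ENSMUSG00000025407, chromosome 10, 127329882 to 127341974, minus strand), depended on the 2 libraries more than any other of the 10 genes. It stood at 9.95, 14.8, 15.3, 19.3 and 17.5 scaled CPM in 24 months replicates 1 to 5, and at 14.6, 18.1, 13.3, 31.1 and 84.2 scaled CPM in 9 months replicates 1 to 5. The SD was 92.6% of the mean at 9 months, the largest of the 10 genes. The log2 fold change was -1.07 ± 0.47 (SE; edgeR adjusted p = 0.356) with all libraries and -0.0035 ± 0.22 without 9 months replicates 4 and 5, where the means were 15.3 ± 3.50 at 24 months (SD, n = 5) and 15.3 ± 2.46 scaled CPM at 9 months (SD, n = 3). The exons of Gli1 overlap Arhgap9 on the opposite strand, which was at 13.3 to 23.3 scaled CPM at 24 months and 11.0 to 17.7 at 9 months. Whether the counting used strand is not given in the sources used here.

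**Figure D2:**
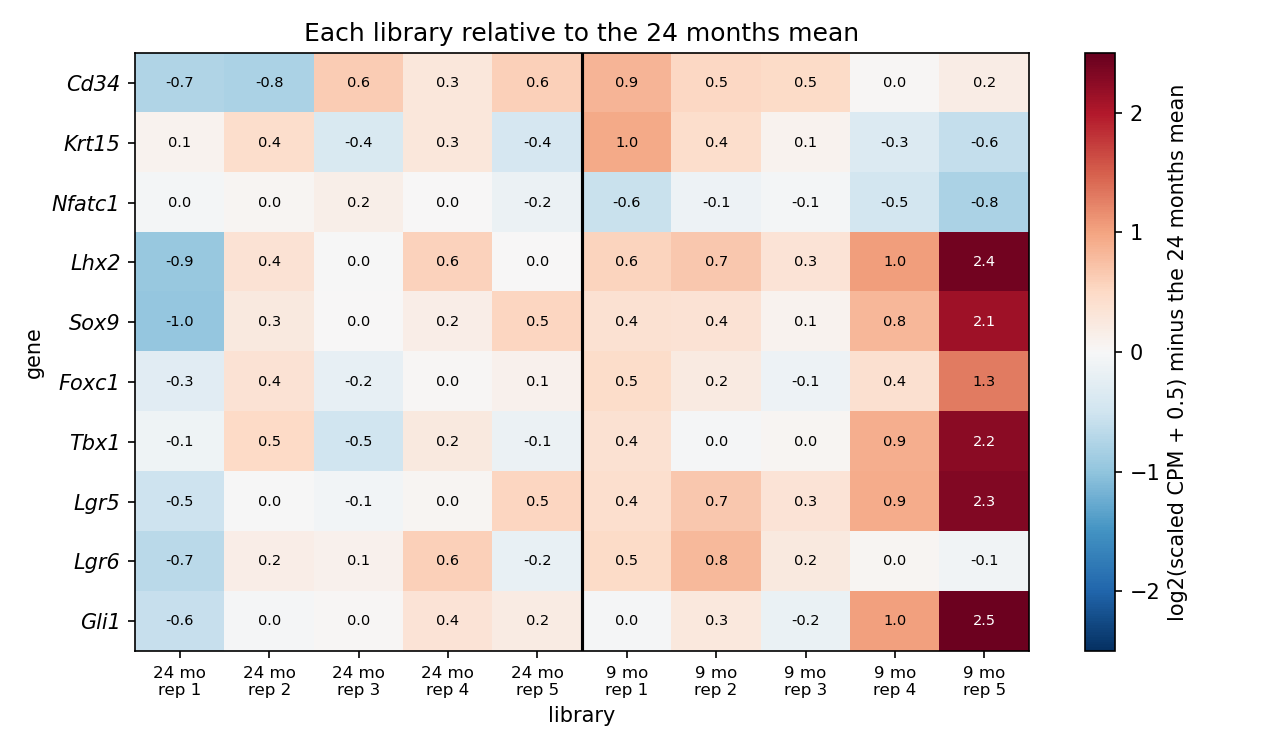
Each cell gives the log2(scaled CPM + 0.5) of a gene (rows) in a library (columns, 24 months left of the line, 9 months right of it) minus the mean of the 24 months libraries; red is higher and blue lower. Lhx2, Sox9, Foxc1, Tbx1, Lgr5 and Gli1 are reddest in 9 months replicate 5, and 24 months replicate 1 is the lowest library for Lhx2, Sox9, Foxc1, Lgr5, Lgr6 and Gli1.

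The 10 genes did not share one pattern across the libraries. Likeness was measured as the root-mean-square difference between profiles of log2(scaled CPM + 0.5), each centred on its own mean over the 10 libraries, so that a smaller value means a closer pattern. Among the 6 genes that were highest in 9 months replicate 5 (Lhx2, Sox9, Foxc1, Tbx1, Lgr5 and Gli1), the 15 pairs differed by 0.21 to 0.47, with a median of 0.36 log2 units. The closest pair of all was Lgr5 and Sox9. Among the other 4 (Cd34, Krt15, Nfatc1 and Lgr6), the 6 pairs differed by 0.41 to 0.71, and the 24 pairs between the sets differed by 0.57 to 1.12, most for Gli1 and Krt15. The other 4 did not form a set apart by this measure: Cd34 lay nearer to Foxc1, at 0.68, than to Krt15, at 0.71. The sets were drawn from the same values, so these distances only describe them. In the older group, replicate 1 was the lowest of all libraries for 6 of the 10 genes. It also had the highest mean of the 6 white fat genes, 9.05 against 6.33 to 8.23 in the other 9 libraries, and the lowest of the 6 basal epithelium genes, 8.71 against 8.89 to 9.48. The part of either in the stem cell gene values was not tested. From the lowest to the highest of the 10 libraries, levels spanned 10.9-fold for Lhx2, the widest of the 10 genes, and 1.94-fold for Nfatc1, the narrowest.

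For the 9 genes whose log2 level spanned more than 1 unit, the 2 protein-coding genes with the most similar profile were taken from 14070 with a mean of at least 1 scaled CPM. Sox9 was closest to Sfrp1, a secreted Wnt inhibitor, at 0.16 log2 units, and to Arhgef19 at 0.19, where the median gene lay at 0.78. Gli1 was closest to Zfp365 at 0.12 and Cpsf4l at 0.15 (median gene 0.85), and Lgr5 to Cwh43 and Nudt11, both at 0.19 (median gene 0.78). Lhx2 was closest to Gsdma, a gasdermin gene, at 0.19 and to the growth factor gene Fgf22 at 0.20, Tbx1 to Wnk4 at 0.19 and Nfe2l3 at 0.20, and Foxc1 to Lrfn4 at 0.11 and Slco4a1 at 0.12. Cd34 was closest to Mrgprf and Wnt2, both at 0.13, Krt15 to Hoxa2 at 0.15 and Capns2 at 0.16, and Lgr6 to Olfm2 at 0.11 and Them5 at 0.12. The nearest profiles were picked for likeness over these same libraries, so they lie below the median gene by construction and only repeat the shape of their gene. Near Cd34, Wnt2 had 2.34 and 2.30 scaled CPM in 24 months replicates 1 and 2, against 5.45 to 9.24 in each other library. Near Gli1, Zfp365 had 9.34 and 24.4 scaled CPM in 9 months replicates 4 and 5, against 2.79 to 6.12 elsewhere.

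**Figure D3:**
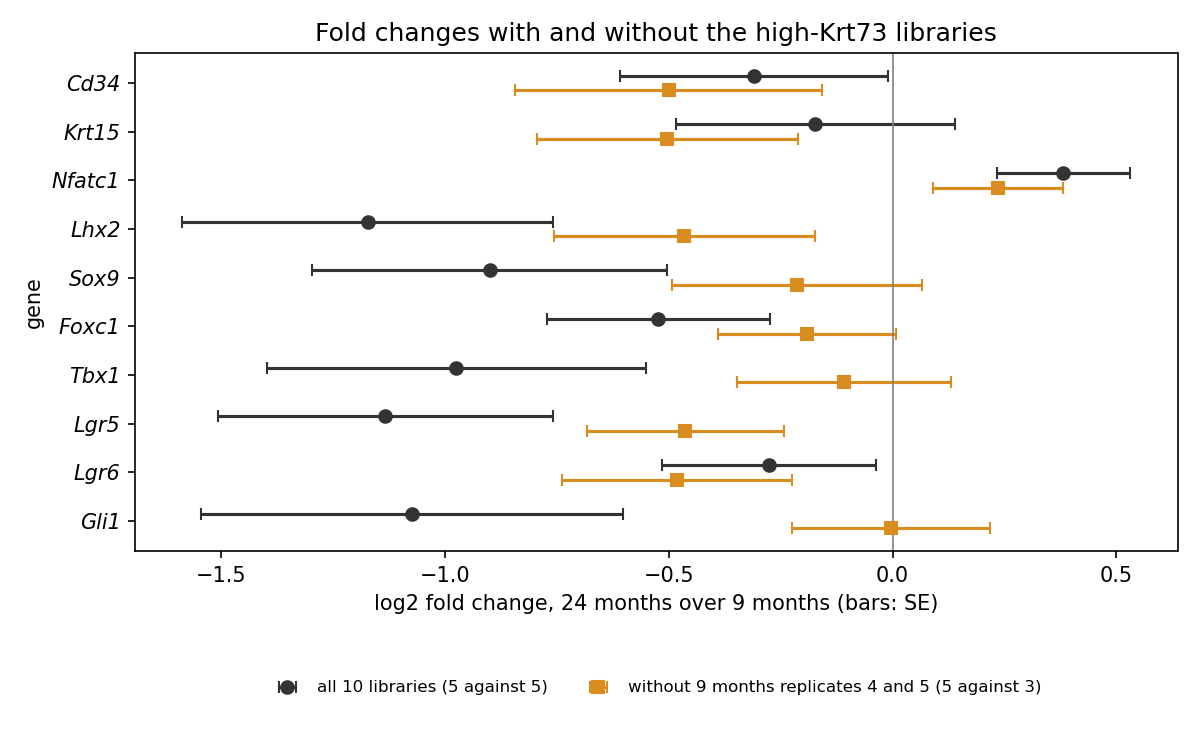
Log2 fold change of 24 months over 9 months with its SE (horizontal axis) for the 10 genes, from edgeR with all 10 libraries (black circles) and without 9 months replicates 4 and 5 (orange squares). Leaving out those libraries moves Gli1, Tbx1, Lhx2, Sox9, Lgr5 and Foxc1 towards 0, whereas Cd34, Krt15 and Lgr6 move away from it.

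Levels were compared between genes per kilobase of merged exon length, in scaled CPM per kb. At 24 months Krt15 led with 1254 ± 329.3, followed by Cd34 with 30.5 ± 13.4 and Nfatc1 with 10.6 ± 0.832 (SD, n = 5), and none of these 3 overlapped its neighbour in the order. Sox9 with 6.54 ± 2.17, Lgr6 with 5.46 ± 1.74, Tbx1 with 4.22 ± 1.17, Foxc1 with 4.17 ± 0.783 and Lhx2 with 3.98 ± 1.41 followed, and each overlapped the next. Gli1 with 3.07 ± 0.702 and Lgr5 with 1.88 ± 0.507 came last. At 9 months Krt15 with 1414 ± 623 and Cd34 with 37.8 ± 8.47 again led without overlap. Next, Sox9 with 12.2 ± 8.58, Lhx2 with 8.96 ± 6.56 and Tbx1 with 8.29 ± 6.73 stood above Nfatc1 with 8.14 ± 1.71 in the order of means. Sox9 exceeded Lhx2, and Lhx2 exceeded Tbx1, in 5 of 5 younger libraries, although their ranges overlapped, whereas Tbx1 exceeded Nfatc1 in 2 of 5. Lgr6 with 6.61 ± 1.73, Gli1 with 6.46 ± 5.98, Foxc1 with 6.00 ± 2.51 and Lgr5 with 4.12 ± 2.93 followed, each overlapping the next, although Lgr5 was below Foxc1 within each of the 5 libraries. This order rested on 9 months replicates 4 and 5. Without them Nfatc1 came next after Cd34, as at 24 months, with 9.00 ± 1.58 (SD, n = 3), followed by Lgr6 with 7.59 ± 1.53, Sox9 with 7.56 ± 0.846, Lhx2 with 5.47 ± 0.648, Foxc1 with 4.75 ± 0.958, Tbx1 with 4.54 ± 0.742, Gli1 with 3.07 ± 0.493 and Lgr5 with 2.58 ± 0.328. In that order Sox9 did not overlap Lhx2 and Tbx1 did not overlap Gli1, while the other neighbours after Nfatc1 overlapped.

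Other genes of the same compartments were read from lists chosen with earlier results of these data known. Of 13 further bulge genes, 11 had a negative log2 fold change at 24 months, the median was -0.24, and 3 were lower and 0 higher at an unadjusted p under 0.05, beside 6.45% and 6.62% of all genes. After adjustment 0 passed. Over all genes tested, 51.6% had a negative log2 fold change. The 4 with the smallest p were the Wnt inhibitor genes Wif1 at -1.68 ± 0.47, Dkk3 at -0.64 ± 0.26 and Sfrp1 at -0.81 ± 0.36, and the vitamin D receptor gene Vdr at -0.85 ± 0.41 (log2, SE; edgeR adjusted p = 0.164, 0.313, 0.362 and 0.409). Wif1 stood at 3.92, 3.22, 6.94, 7.57 and 8.44 scaled CPM in 24 months replicates 1 to 5, and at 6.98, 8.28, 16.2, 24.9 and 39.8 in 9 months replicates 1 to 5, so that the groups overlapped in the 2 lowest young libraries. The median of the list was -0.13 without 9 months replicates 4 and 5, and 8 of the 13 were negative, beside 48.6% of all genes. Then 0 genes of the list were lower at an unadjusted p under 0.05, where 4.14% of all genes were.

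Of 6 genes of the hair germ and early growth, 5 were negative, with a median of -0.59, and 2 were lower at an unadjusted p under 0.05: Bambi, a decoy receptor of the TGF-beta family, at -2.51 ± 0.64, and Lef1, a nuclear partner of beta-catenin, at -3.29 ± 0.92 (log2, SE; edgeR adjusted p = 0.163 and 0.164). Of all genes, 51.6% were negative and 6.45% were lower at that threshold. The next of the 6 were Wnt10b at -0.51 and Edar at -0.56. Lef1 stood at 1.11 to 1.78 scaled CPM at 24 months, at 1.59 to 2.13 in 9 months replicates 1 to 3 and at 19.7 and 41.0 in 9 months replicates 4 and 5. Without those 2 libraries the list median was -0.12, with 4 of the 6 negative and 1, Bambi, lower at an unadjusted p under 0.05. Of all genes, 48.6% were then negative and 4.14% lower. Lef1 was then at -0.41, whereas Bambi was at -0.78 with its 5 older libraries, at 3.89 to 5.77 scaled CPM, below the 3 younger ones, at 6.78 to 10.4. In those 8 libraries, 2.41% of all genes were separated in this direction.

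Of 8 genes of the isthmus and upper follicle, where Lgr6 and part of the Gli1-expressing cells sit, 5 were negative, with a median of -0.39. Lrig1, a brake on growth factor receptors that marks isthmus stem cells, had a log2 fold change of -0.42 ± 0.17, and Sostdc1, a BMP and Wnt inhibitor, -0.58 ± 0.24 (SE; edgeR adjusted p = 0.309 and 0.313). Both were lower at an unadjusted p under 0.05, as were 6.45% of all genes, of which 51.6% were negative. The keratin gene Krt79 was at -0.37 and the protease inhibitor gene Cst6 at -0.44. Lrig1 was at -0.23, Sostdc1 at -0.65 and the list median at -0.14 without 9 months replicates 4 and 5. Then 5 of the 8 were negative, beside 48.6% of all genes. Sostdc1 alone was lower at an unadjusted p under 0.05, beside 4.14% of all genes.

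Hedgehog signalling, which Gli1 reports on, was covered by 15 further genes. Of these, 14 passed the filter and all 14 had negative log2 fold changes, with a median of -0.32. Over all genes 51.6% were negative. Of the 14, 3 were lower and 0 higher at an unadjusted p under 0.05, beside 6.45% and 6.62% of all genes. Of these genes 0 passed after adjustment. Those 3 were Gas1, a co-receptor, at -0.69 ± 0.16, Hhip, a hedgehog-binding inhibitor, at -2.91 ± 0.83, and the factor gene Gli3 at -0.78 ± 0.34 (log2, SE; edgeR adjusted p = 0.163, 0.164 and 0.35). The factor gene Gli2 came next, at -1.02 ± 0.47 (edgeR adjusted p = 0.385). Shh, the ligand of the follicle, was the gene that did not pass the filter. It was at 0.128, 0, 0.2, 0.337 and 0.144 scaled CPM in 24 months replicates 1 to 5, and at 0.0705, 0.233, 0.287, 3.26 and 6.96 in 9 months replicates 1 to 5. The median was -0.13 without 9 months replicates 4 and 5, and 11 of the 14 were negative, where 48.6% of all genes were. Then 2 were lower at an unadjusted p under 0.05, beside 4.14% of all genes. They were Gas1 at -0.69 and Cdon, another co-receptor gene, at -0.48, which was named after its value was seen. Hhip was at -0.58, Gli3 at -0.09 and Gli2 at 0.08. Gas1 stood at 40.7, 47.6, 40.6, 67.5 and 54.0 scaled CPM in 24 months replicates 1 to 5, and at 89.9, 64.6, 86.6, 74.2 and 87.3 in 9 months replicates 1 to 5, the groups meeting only between 24 months replicate 4 and 9 months replicate 2.

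Of 8 genes of the R-spondin pathway, through which Lgr5 and Lgr6 act, 7 were negative, with a median of -0.41. At an unadjusted p under 0.05, 2 were lower. The shares over all genes were 51.6% negative and 6.45% lower. Rspo4, a ligand gene, was at -3.25 ± 0.93 and Lgr4, the third receptor of the family, at -0.57 ± 0.24, followed by Rnf43, a ubiquitin ligase that removes Wnt receptors, at -0.46 and Rspo3, a ligand gene, at -0.36 (log2, SE; edgeR adjusted p = 0.167, 0.323, 0.412 and 0.687). Rspo4 stood at 0.289 to 0.622 scaled CPM at 24 months, at 0.458 to 0.931 in 9 months replicates 1 to 3, and at 5.00 and 16.4 in 9 months replicates 4 and 5. Without those 2 libraries Rspo4 was at -0.43, Lgr4 at -0.20 and the list median at -0.29. The list then had 0 genes at an unadjusted p under 0.05, where 4.65% of all genes were higher and 4.14% lower.

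**Figure D4:**
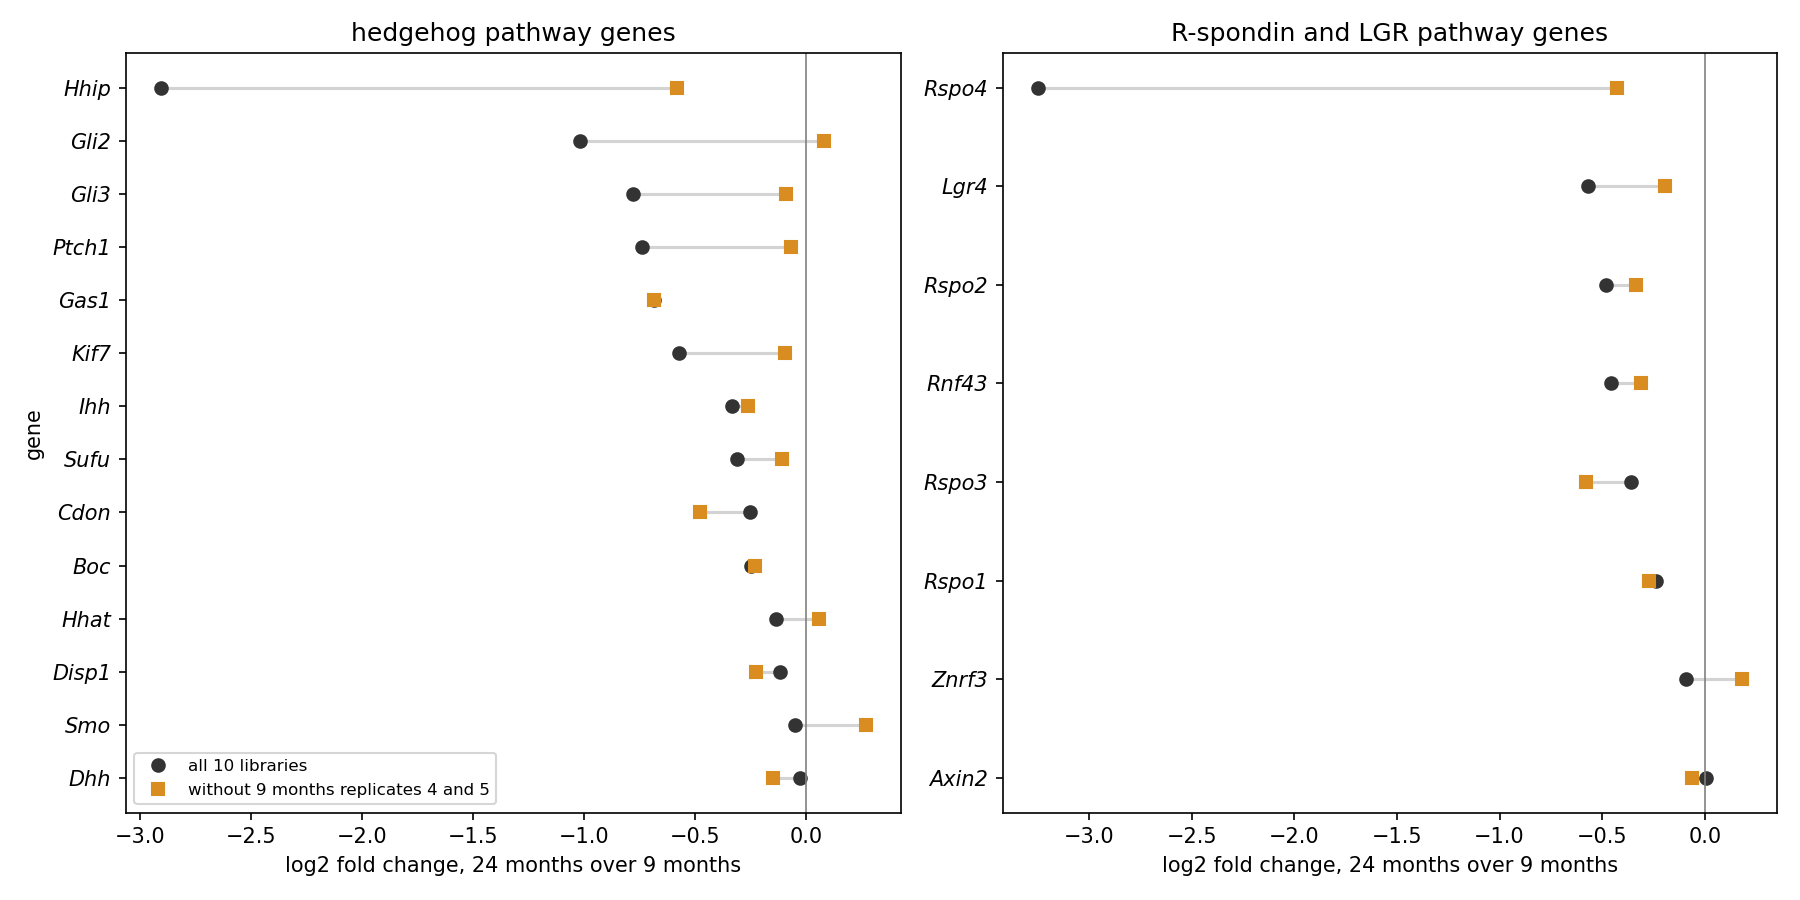
Log2 fold change of 24 months over 9 months (horizontal axes) for the 14 tested hedgehog genes (left) and the 8 R-spondin pathway genes (right), with all 10 libraries (black circles) and without 9 months replicates 4 and 5 (orange squares). Hhip and Rspo4 shift most, at -2.91 and -3.25 with all libraries and -0.58 and -0.43 without those, while Gas1 stays at -0.69.

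Marker lists of other cells and layers differed in the size and the direction of their median log2 fold change. The 9 inner root sheath genes averaged 8.94 and 10.51 in 9 months replicates 4 and 5, 1.57 to 4.28 in 9 months replicates 1 to 3 and 1.29 to 2.62 at 24 months on the log2(scaled CPM + 0.5) scale, and their median log2 fold change was -7.26, or -2.02 without those 2 libraries. Even without 9 months replicates 4 and 5, 8 of the 9 were lower at an unadjusted p under 0.05 in edgeR, where 4.14% of all genes were. Melanocyte genes had medians of -2.88 and -0.32, dermal papilla genes of -0.48 and -0.07, and fibroblast genes of -0.61 and -0.75, with all libraries and without those 2. Differentiated epidermis genes had medians of -0.23 and -0.53, white fat genes of 0.64 and 0.57, and basal epithelium genes of -0.0042 and -0.0086. The median of sebaceous gland genes was -0.20 with all libraries and 0.04 without those 2, and that of blood endothelium genes was 0.08 and -0.01. When libraries were scaled to the 6 basal epithelium genes instead of all genes, the median over all genes was -0.07, with 60.65% negative. The 10 stem cell genes then had a median of -0.83 with 9 negative. Nfatc1 stayed positive at 0.32. The part of these other cells in the stem cell gene values was not tested.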

How the data were processed

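Skin mRNA was sequenced in 10 libraries, made with Illumina's multiplex mRNA kit per the labels' protocols. The submitters' processing notes name CASAVA 1.7, STAR 2.4.1d, featureCounts 1.4.6-p4 and build GRCm38, without settings or annotation release. The deposited table holds whole-number counts per gene, not normalised by the authors. A deposited table named RPKM was not used, because its values differed from counts over library totals by a residual SD of 0.434 (log2) across 8455 well-covered genes. Every one of 45 library pairs differed beyond sampling noise (chi-square of 38.1 or more per gene).

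Symbols, coordinates and exon lengths came from GENCODE vM21, matched by identifier for 47224 genes. In edgeR 4.0.16 (R 4.3.3), genes were filtered by filterByExpr, libraries scaled by trimmed means, and 24 months tested against 9 months with the robust quasi-likelihood F test and no covariate, with Benjamini-Hochberg adjustment over all genes tested and a threshold of 0.05. SE was derived from the F statistic. The test was checked on simulated counts. Alternatives were DESeq2 1.42.0, limma 3.58.1 (voom), other size factors, no filter, scaling to epithelial genes and leaving libraries out.

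The 10 genes and all lists were chosen with earlier results of these data known. Named genes were those 10, Krt73, up to 4 genes of each list with the smallest p, and the 2 nearest profiles of each of the 10 that spanned more than 1 log2 unit. Shh, Gm16897 and Arhgap9 were added for the reasons given beside them. Replicate numbers follow the order of listing. A listed gene is not reported here and was left out of its list.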

Additional observations from a re-analysis of the deposited data

Results flagged for a closer look

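In 5 of 20 groups tested, 1 library stood apart from the other 4 of its group by more than Dixon's 95% limit. Chance passes that limit in about 1 of 20 independent groups. The 20 groups were the 10 genes read in the same 10 libraries and were not independent, so that rate does not apply to their count. In each of the 5 the library was 9 months replicate 5. It stood at 90.1 scaled CPM for Lhx2, 112.8 for Sox9, 70.4 for Tbx1, 95.4 for Lgr5 and 84.2 for Gli1. The nearest other 9 months library in each case was replicate 4, at 34.5, 45.8, 27.5, 36.3 and 31.1 scaled CPM. The same library had the highest Krt73 and the largest total count of the 10, and the part of either in these values was not tested. For Foxc1, the remaining gene with its highest level there, the library at 60.1 scaled CPM narrowly missed the limit, with a Dixon ratio of 0.708 against 0.71.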

How the results depend on the processing

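Under the 17 alternatives, the number of stem cell genes with a negative log2 fold change stayed at 8 or 9 of 10, and 0 of the 10 were called under any of them. Their median log2 fold change was -0.71 with all libraries, -0.34 without 9 months replicates 4 and 5, and -0.86 to -0.35 when 1 library was left out, the last without 9 months replicate 5. Of 170 single-gene values, 168 kept their direction and 2 turned: Cd34 was at 0.0781 without 24 months replicates 1 and 2, and Krt15 was at -0.32 to 0.0898 when 1 library was left out; the cause was not tested. The count of all genes called was 0 in edgeR with all libraries, with 2308 at an unadjusted p under 0.05, 916 in DESeq2 and 0 in limma-voom. It was 1 with no filter on low counts (Stfa2l1), 1 without 9 months replicates 4 and 5 (Fos), and 0 to 8 when 1 library was left out, with the 8 without 24 months replicate 4; Stfa2l1 and Fos were named after their values were seen. No paired analysis was possible because the labels give no number shared between the age groups. The SE of the 10 genes was 0.15 to 0.47 on the log2 scale with all libraries and 0.15 to 0.34 without 9 months replicates 4 and 5. In edgeR with all libraries, the -1.17 of Lhx2, the most negative of the 10 genes, did not pass the threshold (adjusted p = 0.247).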
